A study of Homo sapiens with 12 samples.

Results

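The MYC and PVT1 domain was examined as the stretch chr8:127700000-130800000 of the human genome build hg19, which is 3.1 Mb long and holds MYC, PVT1 and the gene deserts on both sides. Its members were the peaks of chromatin immunoprecipitation sequencing (ChIP-seq) whose intervals lay wholly inside this stretch. There were 54 SMC1 peaks and 122 CTCF peaks, 176 of the 265912 peaks in the 8 libraries of these antibodies, and 5 further peaks in the 4 IgG control libraries. The cells were HAP1, a near-haploid human line with a leukaemic origin, in 4 genotypes. Wild-type cells were compared with ΔWAPL cells, ΔSCC4 cells and ΔWAPL/ΔSCC4 cells. WAPL was disrupted with CRISPR by a blasticidin cassette and SCC4 by a puromycin cassette, and the ΔWAPL/ΔSCC4 cells, also called the double mutant below, came from ΔWAPL cells by loss of SCC4. The mutants were clones, so a feature that ΔWAPL and ΔWAPL/ΔSCC4 cells share may belong to the loss of WAPL or to their common clone, and these cannot be told apart. The peak lists hold no check of either deletion. Every genotype and antibody had 1 library. No test between genotypes was therefore possible, and the 95% intervals below cover counting error only.

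SMC1 is a core subunit of cohesin, the ring-shaped complex that holds DNA in loops. SCC4 is part of the loader that places cohesin on DNA, and WAPL is the factor that releases it. CTCF binds DNA through zinc fingers at a long directional motif, and cohesin is often found where CTCF is bound. Loops tend to join pairs of CTCF sites whose motifs point toward each other. MYC encodes a transcription factor that drives growth and proliferation. PVT1, its neighbour toward the telomere, is a long non-coding RNA gene that hosts microRNAs such as MIR1205, MIR1207 and MIR1208. The deserts around the pair contain distant MYC enhancers and long non-coding RNA genes, PCAT1, CASC19, CASC8 and CCAT2 on the centromere side and LINC00824 and CCDC26 on the telomere side.

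To see which way each CTCF site points, a motif was learned from CTCF peaks on odd-numbered chromosomes only. It is shown because the orientations given below rest on it, with N for positions where no base prevailed.

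CTCF motif: CCACNAGGGGGCGCNNNNG

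The motif was searched on both strands within 50 bp of a summit, and a score that 5% of flanking windows passed was called a match. Between 76.4% and 79.5% of the CTCF peaks on even-numbered chromosomes matched it, depending on genotype. Of the 43 CTCF regions of the domain, which are the merged overlapping peaks of the 4 genotypes, 16 held a match on the forward strand, pointing toward the telomere, 18 held one on the reverse strand, and the others held none.

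The genome-wide average recovered from the peak lists was 6.79 to 8.41 reads per kb for SMC1, 6.53 to 8.41 for CTCF and 8.55 to 9.05 for IgG in 3 genotypes, with 5.43 for IgG in ΔSCC4 cells. A summit in a region of average background needed at least 9 reads to be listed in every SMC1 library. Fold enrichment, the peak caller's ratio of summit reads to local background, is given below as deposited, and adds 1 read to each of them. The level of a peak is its number of summit reads over the average of its library.

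The domain held few cohesin peaks in wild-type cells and more of them in both genotypes without WAPL. There were 8 SMC1 peaks in wild-type cells (exact Poisson 95% interval 3.45 to 15.8), 21 in ΔWAPL cells (13 to 32.1), 7 in ΔSCC4 cells (2.81 to 14.4) and 18 in ΔWAPL/ΔSCC4 cells (10.7 to 28.4). ΔWAPL cells had 2.63 times the wild-type number (1.12 to 6.85), where the ratio over all chromosomes was 1.83. In ΔSCC4 cells it was 0.875-fold (0.270 to 2.76; 0.689 over all chromosomes), and in ΔWAPL/ΔSCC4 cells 2.25-fold (0.931 to 5.98; 1.43 over all chromosomes). The genome-wide ratios lay inside all 3 intervals. They come from the deposited lists, which hold 18542 SMC1 peaks in wild-type, 33952 in ΔWAPL and 12779 in ΔSCC4 cells. The paper reports a similar wild-type number but more peaks in ΔWAPL and fewer in ΔSCC4 cells, and so larger genome-wide changes. The ΔWAPL/ΔSCC4 ratio turned to 0.857 when only peaks of −log10 q of at least 10 were counted and to 0.750 when each list was cut to the same number of strongest peaks. The ΔWAPL ratio was 1.71 (0.622 to 5.14) under the first of these choices and 1.25 (0.444 to 3.64) under the second. Its interval also included 1 with −log10 q of at least 5 (0.993 to 6.27), with a fold enrichment of at least 5 (0.890 to 6.57), with depth scaled to the shallowest library and a stricter p (0.869 to 5.69) and in a domain 200 kb narrower on each side, where the ratio was 1.86 (0.689 to 5.50). The excess of ΔWAPL peaks over wild-type was thus beyond counting error only with some of the thresholds tried.

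**Figure D1:**
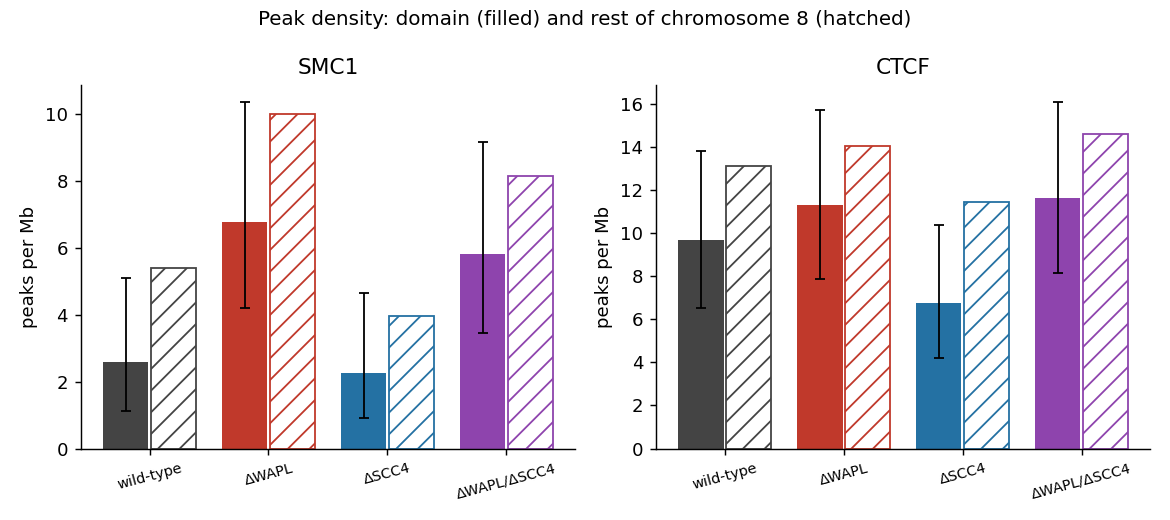
SMC1 peaks per Mb (left) and CTCF peaks per Mb (right) in the 4 genotypes, in the domain (filled bars, with exact Poisson 95% intervals) and on the rest of chromosome 8 (hatched bars). In wild-type cells the domain held 2.58 SMC1 peaks per Mb against 5.39 elsewhere on the chromosome, and the SMC1 bars of both genotypes without WAPL were the tallest in the domain.

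The SMC1 density was below that of the rest of chromosome 8 in every genotype. It was 2.58 peaks per Mb in wild-type cells, against 5.39 elsewhere on the chromosome, and 6.77 against 10.0 in ΔWAPL cells. In ΔSCC4 cells it was 2.26 against 3.97, and in ΔWAPL/ΔSCC4 cells 5.81 against 8.14. The density elsewhere was above the domain's interval in wild-type cells and inside it in the other genotypes, as the plot of peaks per Mb shows.

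The peaks fell into 25 SMC1 regions. Of these, 7 had a peak in all 4 genotypes, or 28.0%, and the share over the genome was 28.2%. Another 8 had a peak in ΔWAPL and ΔWAPL/ΔSCC4 cells and in neither of the others, which was 32.0% of the domain's regions and 16.1% of those of the genome. A peak was found in ΔWAPL cells alone at 6 regions, or 24%, where the genome gave 24.3%. ΔWAPL/ΔSCC4 cells alone had one at 3 regions (12%, genome 6.91%) and wild-type cells alone at 1 (4%, genome 1.56%). No region had a peak in every genotype except ΔSCC4, a pattern that made up 14.1% of regions over the genome. In counts of pairs, 14 of 22 regions had an SMC1 peak in ΔWAPL and none in wild-type cells, where 47.3% did over the genome, and 1 of 22 had the opposite, where 3.29% did. Of the 8 regions with a peak in wild-type or ΔSCC4 cells, 1 had it in wild-type cells alone, where 36.5% did. Without WAPL, 6 of 24 regions had a peak in ΔWAPL and none in ΔWAPL/ΔSCC4 cells (28.7% over the genome), and 3 of 24 had the opposite (8.85%).

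**Figure D2:**
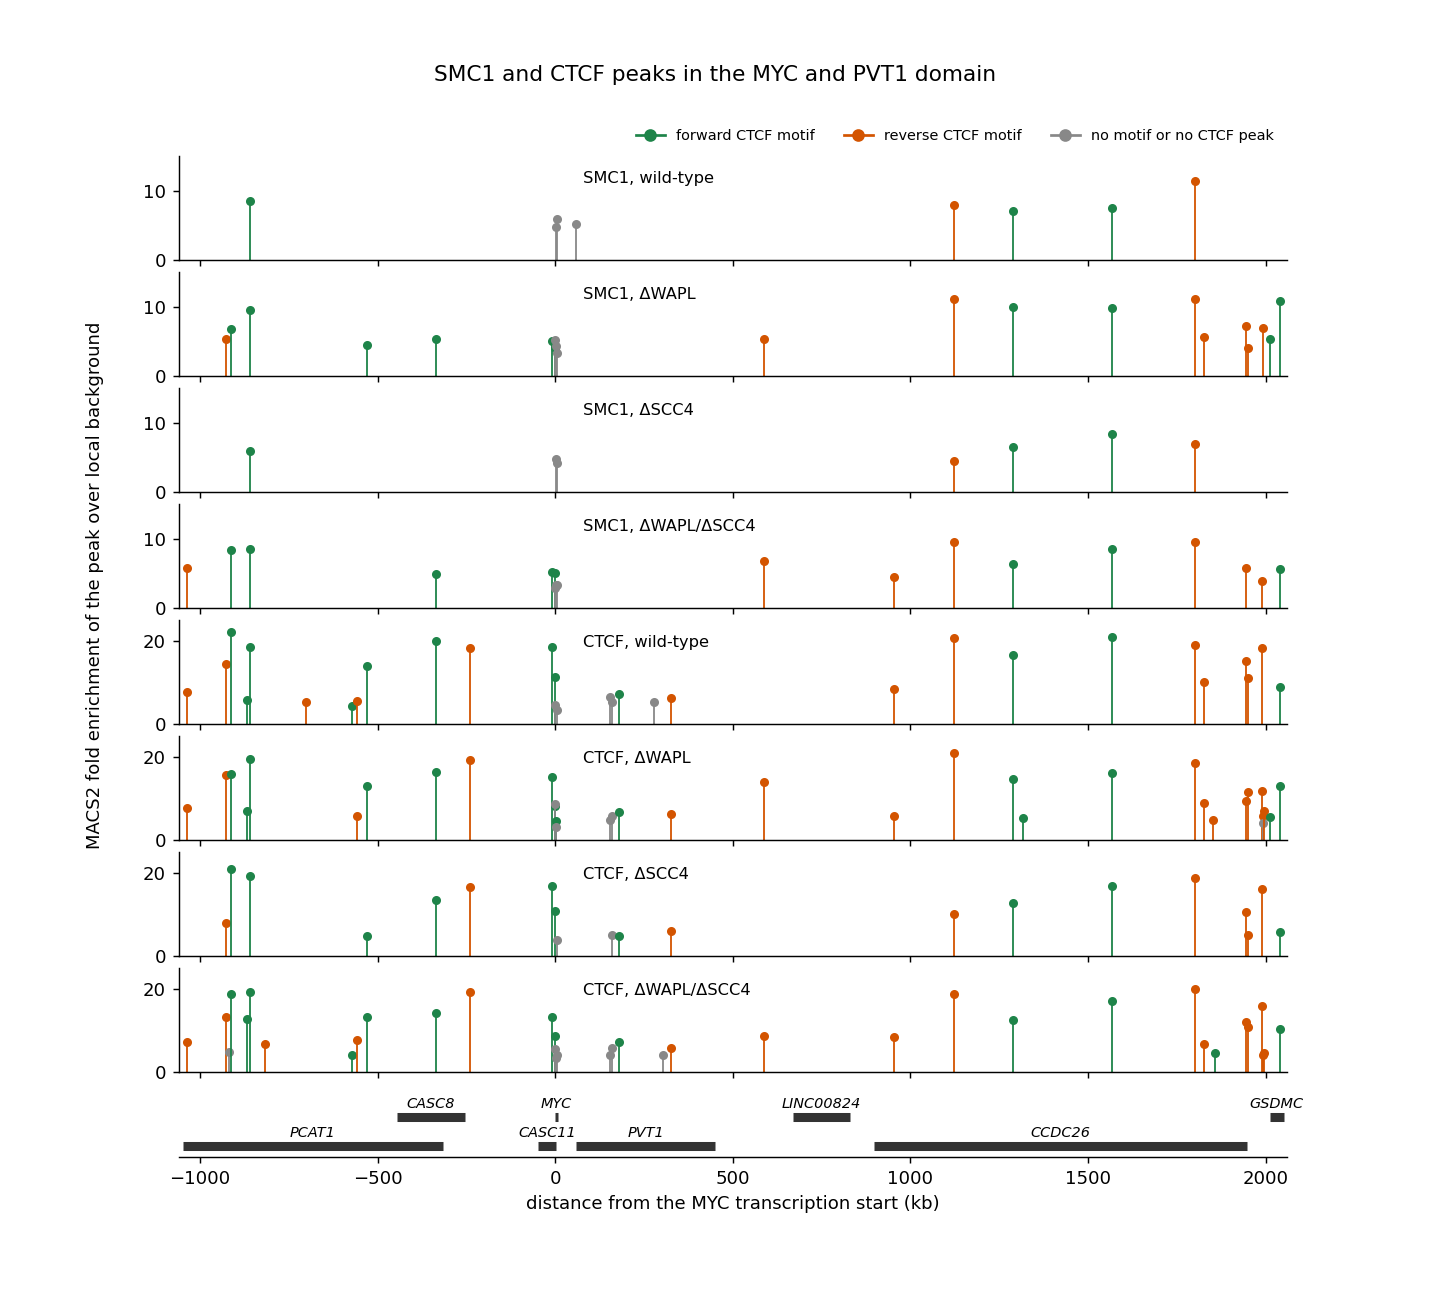
Fold enrichment of each SMC1 peak (upper 4 rows) and CTCF peak (lower 4 rows) against its distance in kb from the MYC transcription start, with the main genes drawn below; green and orange mark a forward and a reverse motif at the CTCF region, grey none. Between the forward site at −859.5 kb and the reverse site at 1123.1 kb, the wild-type and ΔSCC4 rows for SMC1 hold only grey stems at MYC and PVT1, whereas both rows without WAPL hold stems at CTCF motifs there.

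The map of peaks along the domain shows a long interior without listed SMC1 peaks at CTCF motifs in cells that have WAPL. In wild-type and ΔSCC4 cells the same 5 SMC1 regions lay at a CTCF region with a motif, at −859.5, 1123.1, 1287.8, 1567.3 and 1799.7 kb from the MYC start. The largest gap among them was 1983 kb, from the forward site at −859.5 kb to the reverse site at 1123.1 kb, and MYC and PVT1 lay inside it. In ΔWAPL cells 18 SMC1 regions lay at such sites and in ΔWAPL/ΔSCC4 cells 15. The largest gap was then 589 kb in both, from the forward site at −2.1 kb to the reverse site at 586.6 kb. This shorter gap still contained both MYC and PVT1.

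All 14 SMC1 regions present in ΔWAPL and not in wild-type cells lay at a CTCF region. Over the genome 66.4% of the 16552 such regions overlapped a CTCF peak of ΔWAPL cells. At 11 of the 14 wild-type cells had a CTCF peak without SMC1, and at 3 they had neither. The genome-wide share with a wild-type CTCF peak was 60.6%. Of the 14 CTCF regions, 7 held a forward motif, 6 a reverse motif and 1 none. The 11 SMC1 regions present in ΔWAPL/ΔSCC4 and not in ΔSCC4 cells also lay at CTCF regions, 7 of which had a CTCF peak in ΔSCC4 cells. Over the genome 89.9% of such regions overlapped a CTCF peak of ΔWAPL/ΔSCC4 cells and 79.4% one of ΔSCC4 cells. Regions with SMC1 in ΔWAPL/ΔSCC4 and not in ΔSCC4 cells made up 53.2% over the genome, and here they were 11 of 18.

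Close to MYC, CTCF was bound upstream in every genotype, and SMC1 was found there only without WAPL. The CTCF region 2.1 kb upstream of the start (chr8:128746158-128746592) lies in an intron of CASC11, a non-coding gene on the opposite strand, and held a forward motif at chr8:128746355-128746373, pointing toward MYC. Its CTCF summit held 52 reads in wild-type cells, 50 in ΔWAPL, 50 in ΔSCC4 and 46 in the double mutant, and its fold enrichment was 11.2, 8.23, 10.7 and 8.62 in that order. CTCF levels there differed from wild-type by less than counting error, at 0.76 (0.51 to 1.14) in ΔWAPL and 0.85 (0.57 to 1.28) in ΔSCC4 cells. SMC1 had a peak at this site of 48 reads in ΔWAPL cells (fold enrichment 4.11) and of 35 reads in ΔWAPL/ΔSCC4 cells (5.03). These were levels of 30.1 and 22.7 times the library average, with a ratio of 0.75 (0.47 to 1.19).

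A second CTCF site lay 10.3 kb upstream (chr8:128737903-128738418), also in a CASC11 intron and also with a forward motif. Its CTCF fold enrichment was 18.6 in wild-type cells, 15.2 in ΔWAPL, 16.8 in ΔSCC4 and 13.4 in the double mutant. SMC1 was again called there only without WAPL, with 15 reads in ΔWAPL cells (5.06-fold enriched) and 16 in ΔWAPL/ΔSCC4 cells (5.16-fold).

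By level, which includes the local background, the MYC start itself ranked first in the domain for SMC1 in ΔWAPL cells. The SMC1 peak there (chr8:128748327-128748701), which spans the start of exon 1, held 69 reads in ΔWAPL cells, a level of 43.3, and 23 reads in ΔWAPL/ΔSCC4 cells, a level of 14.9. The ΔWAPL/ΔSCC4 level was 0.34 of the ΔWAPL level (0.20 to 0.56). The genome-wide median of this ratio was 0.769, over regions with a peak in all 4 genotypes. The MYC start is not such a region, so the 2 values are not like for like. The fold enrichments were closer, at 5.20 in ΔWAPL and 2.94 in ΔWAPL/ΔSCC4 cells, as the local background was 7.82 and 4.65 times the library average. By fold enrichment the start did not rank first in ΔWAPL cells. The ΔWAPL peak at 1799.7 kb held 63 reads, a level of 39.5, at a fold enrichment of 11.1. Wild-type and ΔSCC4 cells had no SMC1 peak at the start. At the highest background recovered at MYC in those lists, a peak would have needed 17 reads in either, a level of 10.8 in wild-type and 10.2 in ΔSCC4 cells, so a weaker signal would not have been listed. CTCF was called at the start with 23 reads in wild-type cells, 58 in ΔWAPL and 31 in the double mutant and was not called in ΔSCC4 cells. The ΔWAPL level was 2.00 times that of wild-type (1.21 to 3.39). No CTCF motif matched under this summit. A further CTCF peak at 1.6 kb was called in ΔWAPL cells alone, at a fold enrichment of 4.68.

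**Figure D3:**
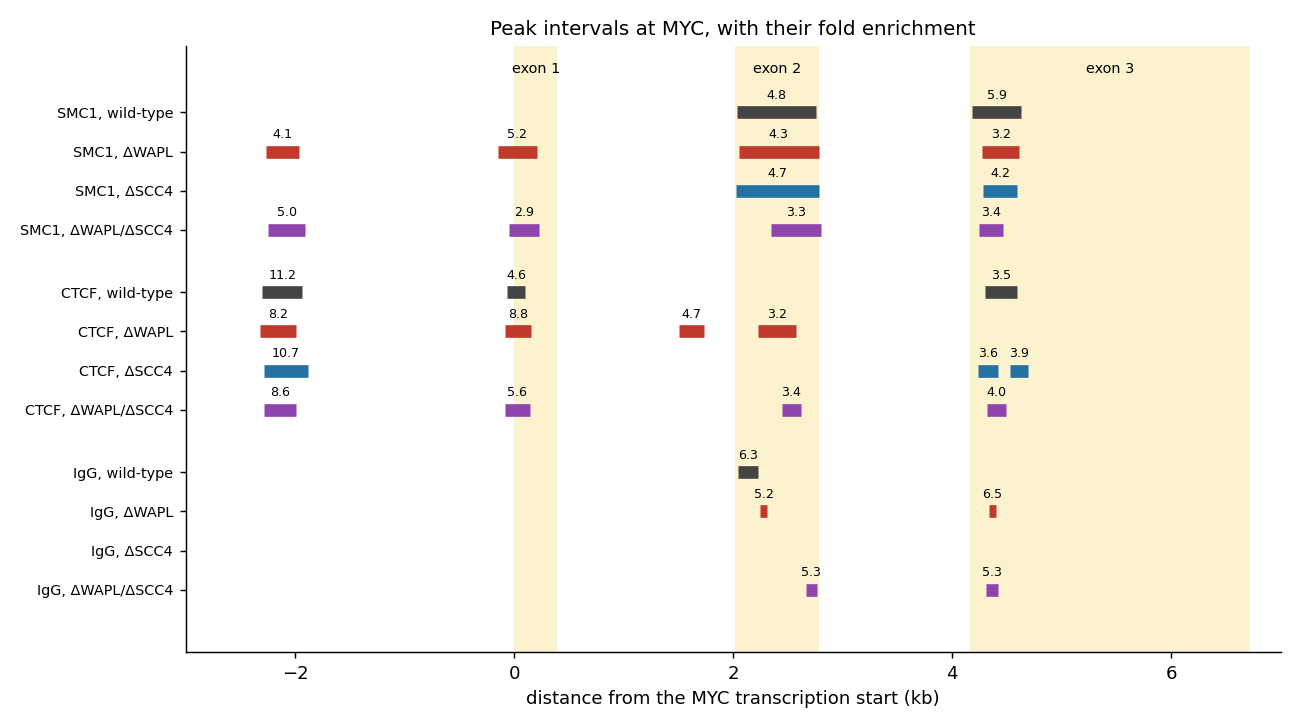
Intervals of all SMC1, CTCF and IgG peaks within 5 kb of MYC against the distance in kb from its transcription start, by genotype, with the deposited fold enrichment above each bar and the 3 exons shaded. SMC1 bars at −2.1 kb and at the start appear only in ΔWAPL and ΔWAPL/ΔSCC4 cells, while those in exons 2 and 3 appear in every genotype and IgG bars fall in the same 2 exons.

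Inside the MYC gene, the peaks that all genotypes shared lay in exons and coincided with peaks of the control antibody. SMC1 summits in exon 2 (chr8:128750494-128751265) held 32 reads in wild-type cells, 57 in ΔWAPL, 30 in ΔSCC4 and 25 in the double mutant. In exon 3 (chr8:128752642-128755197) the summits held 37, 36, 24 and 22 reads in the same order. Of each of these 8 intervals, 97.3% to 100% lay within the exon of the canonical transcript. IgG had 1 peak in wild-type cells, 2 in ΔWAPL, none in ΔSCC4 and 2 in the double mutant, all wholly inside exon 2 or exon 3, at fold enrichments of 5.17 to 6.50. These 5 were the only IgG peaks of the domain, and their summits held 10 to 13 reads. At average background the lowest listed IgG summit held 12 reads in ΔSCC4 cells, where 1 such peak was listed, and 8 to 9 in the other genotypes, so a like signal in ΔSCC4 cells would not necessarily have been listed. The smaller CTCF peaks in the 2 exons, 6 in all, had fold enrichments of 3.16 to 4.04 and no motif match.

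SMC1 regions were therefore also counted without those exons. Without the regions that met an IgG peak, 6 SMC1 regions remained in wild-type cells, 19 in ΔWAPL, 5 in ΔSCC4 and 16 in the double mutant. HAP1 descends from KBM-7 cells that had been exposed to vectors carrying cDNA of MYC, SOX2, KLF4 and POU5F1, and whether such copies add reads at these exons was not tested. Of the other 3 genes, which were looked at after the MYC values were seen, SOX2 had IgG peaks, 2 in wild-type cells, 2 in ΔWAPL, none in ΔSCC4 and 1 in the double mutant. KLF4 and POU5F1 had no IgG peak in any library. SMC1 summits in exons were listed at SOX2 and KLF4 in every genotype, and at POU5F1 in ΔWAPL and ΔSCC4 cells only. CTCF was also listed in every genotype at KLF4 (highest fold enrichment 9.91 to 11.6) and SOX2 (3.47 to 4.64). How often other genes hold such SMC1 summits was not counted.

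The local background at MYC was raised as well. For SMC1 peaks within 5 kb of the gene it was 3.43 to 3.75 times the library average in wild-type, 6.53 to 7.82 times in ΔWAPL, 2.97 to 3.32 times in ΔSCC4 and 3.75 to 4.65 times in ΔWAPL/ΔSCC4 cells. Elsewhere in the domain the highest SMC1 background of any genotype was 2.98. The background is taken over 10 kb that include the peaks themselves, and its part in the fold enrichments at MYC was not tested.

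PVT1 (chr8:128806772-129199347, 393 kb, plus strand) had 1 SMC1 region, across its start (chr8:128806607-128806836), which was called in wild-type cells alone. Apart from it, no antibody had a peak between the 3′ end of MYC and the start of PVT1 in any genotype. Its summit lay 58 bp before the PVT1 start and held 18 reads, a fold enrichment of 5.22, with no CTCF peak and no motif. This was the single SMC1 region of the domain that wild-type cells had and ΔWAPL, ΔSCC4 and ΔWAPL/ΔSCC4 cells lacked, and the single one outside the MYC exons with no CTCF peak beside it.

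The PVT1 body held 6 CTCF regions, with fold enrichments of at most 7.31, and none carried SMC1 in any genotype. Those at 158.6, 178.3 and 325.9 kb were called in all 4 genotypes, and their lowest fold enrichment was 4.81. The site at 178.3 kb held 14 reads in wild-type cells, 15 in ΔWAPL, 10 in ΔSCC4 and 16 in the double mutant and had a forward motif. The site at 325.9 kb held 12, 14, 13 and 12 reads and had a reverse motif. Neither motif passed the stricter score that 1% of flanking windows passed. The site at 154.0 kb, 3 bp from an annotated PVT1 transcript start, was called in every genotype except ΔSCC4, that at 278.6 kb in wild-type cells alone and that at 303.7 kb in ΔWAPL/ΔSCC4 cells alone. These 3 held no motif, nor did the site at 158.6 kb.

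On the centromere side of MYC, 1 SMC1 region was present in wild-type cells and 6 were in ΔWAPL cells. The wild-type region at −859.5 kb (chr8:127888796-127889250), in PCAT1, was present in all genotypes. Its SMC1 summit held 23 reads in wild-type cells, 33 in ΔWAPL, 17 in ΔSCC4 and 29 in the double mutant. The levels relative to wild-type were 1.42 (0.81 to 2.53) in ΔWAPL and 0.70 (0.35 to 1.36) in ΔSCC4 cells, neither beyond counting error. The CTCF fold enrichment here was 18.6 to 19.5 in the 4 genotypes, and its motif was forward.

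At −911.7 kb (chr8:127836626-127837041) SMC1 was called in ΔWAPL cells with 22 reads and in ΔWAPL/ΔSCC4 cells with 26 reads, and in neither other genotype. CTCF was strongly bound here throughout, at a fold enrichment of 22.2 in wild-type cells, 16 in ΔWAPL, 21.0 in ΔSCC4 and 18.8 in the double mutant. The wild-type value was the highest CTCF enrichment of the domain, so strong CTCF binding occurred without a listed SMC1 peak. The same held at −335.4 kb, in the exon of the non-coding gene CCAT2. There the CTCF enrichment was 20.0 in wild-type cells, and SMC1 was called with 13 reads in ΔWAPL and 14 in ΔWAPL/ΔSCC4 cells. SMC1 was called in ΔWAPL cells alone at −926.1 kb and −529.0 kb and in ΔWAPL/ΔSCC4 cells alone at −1037.1 kb, with 11 to 16 reads. At −239.6 kb, CTCF was bound at a fold enrichment of 16.7 to 19.4 in every genotype, and SMC1 was not called in any. Its motif, reverse, did not pass the 1% score.

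On the telomere side, SMC1 had 4 peaks in wild-type cells, 11 in ΔWAPL, 4 in ΔSCC4 and 9 in the double mutant, and the 4 wild-type regions were all in CCDC26 introns and present in every genotype. The strongest, at 1799.7 kb (chr8:130547878-130548408), held 43 reads in wild-type cells, 63 in ΔWAPL, 23 in ΔSCC4 and 38 in the double mutant. ΔWAPL cells had the highest level and ΔSCC4 cells the lowest. The ΔSCC4 level was 0.50 of wild-type (0.29 to 0.86) and the ΔWAPL/ΔSCC4 level 0.62 of ΔWAPL (0.41 to 0.95). The genome-wide medians of these ratios, 0.814 and 0.769, lay inside both intervals.

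The region at 1123.1 kb (chr8:129871419-129871825), at a reverse motif, held 24 SMC1 reads in wild-type cells, 34 in ΔWAPL, 11 in ΔSCC4 and 34 in the double mutant. ΔSCC4 cells were alone in being low, at 0.43 of the wild-type level (0.19 to 0.92, which includes the genome-wide 0.814), and ΔWAPL/ΔSCC4 cells had 3.35 times the ΔSCC4 level (1.66 to 7.34). CTCF at the same site was also lowest in ΔSCC4 cells, with 72 reads in wild-type cells, 77 in ΔWAPL, 29 in ΔSCC4 and 70 in the double mutant. The ΔSCC4 level of CTCF was 0.36 of that in wild-type cells (0.22 to 0.56). At the other regions present in all genotypes, at 1287.8 and 1567.3 kb, which both held forward motifs, the SMC1 level in ΔSCC4 cells was 0.89 (0.44 to 1.80) and 1.13 (0.64 to 2.01) of wild-type.

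Of the regions called in both genotypes without WAPL and in neither with it, 3 were on this side. That at 586.6 kb (chr8:129334944-129335250), between PVT1 and LINC00824 and 282 bp from the start of an unnamed gene (ENSG00000286034), had no CTCF peak in wild-type or ΔSCC4 cells either. CTCF there held 39 reads in ΔWAPL cells (13.9-fold enriched) and 21 in ΔWAPL/ΔSCC4 cells (8.75-fold), and SMC1 held 14 and 17 reads. Its motif was reverse. The other 2 lay near gene starts at which CTCF was bound in every genotype. At 1946.0 kb, 108 bp from a start of CCDC26, SMC1 had 29 reads in ΔWAPL and 17 in ΔWAPL/ΔSCC4 cells. At 2040.5 kb, in an intron of GSDMC, which encodes a gasdermin, it had 32 and 14 reads. The ΔWAPL/ΔSCC4 level there was 0.45 of the ΔWAPL level (0.22 to 0.87). That interval includes the genome-wide 0.769, which was taken over regions with a peak in all 4 genotypes, unlike this one. A peak of 31 reads was called in ΔWAPL cells alone at 1992.6 kb, at the pseudogene MTRF1LP2.

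**Figure D4:**
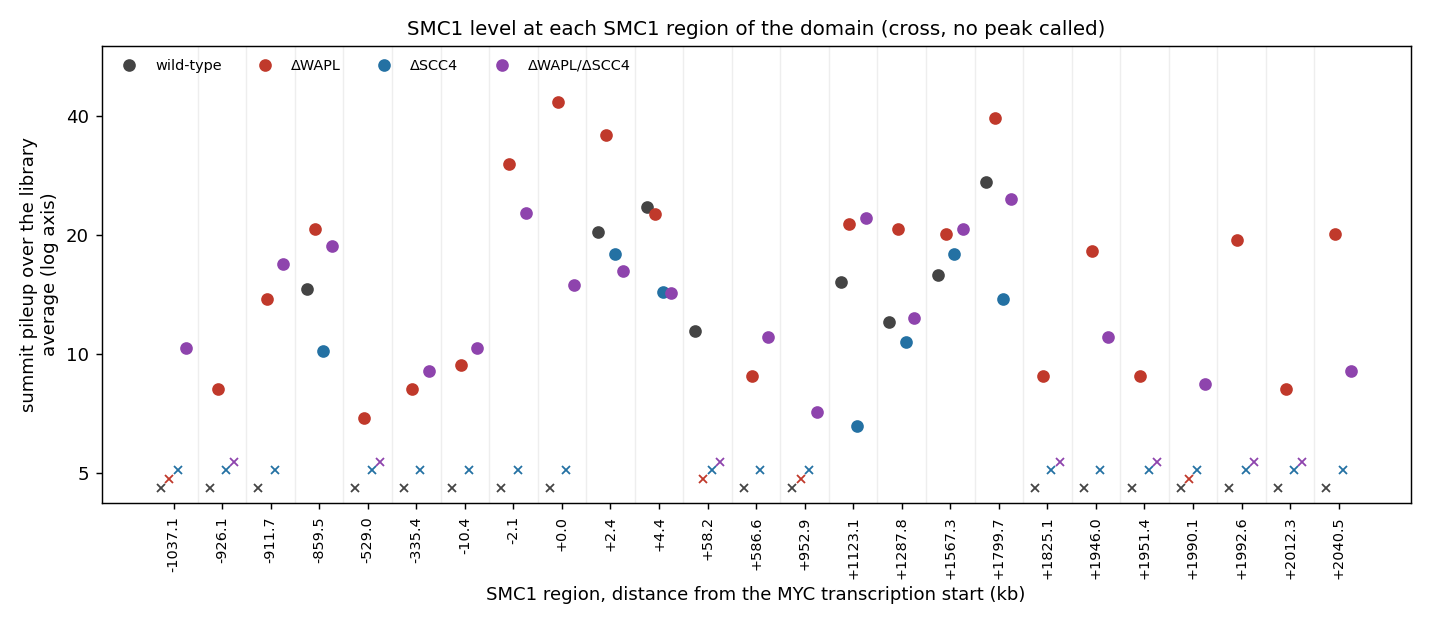
SMC1 level (summit reads over the library average, log axis) at each of the 25 SMC1 regions, ordered by distance in kb from the MYC start; crosses at the bottom mark genotypes without a listed peak and have no value. The 14 regions with a ΔWAPL point and a wild-type cross stand on both sides of MYC, and the ΔWAPL point at the MYC start is the highest, at 43.3.

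Where all 4 genotypes had an SMC1 peak, the median level was above wild-type in ΔWAPL cells and below it in ΔSCC4 cells, as over the genome, and in ΔWAPL/ΔSCC4 cells it was near that of wild-type. Over the 7 shared regions the median level relative to wild-type was 1.42 in ΔWAPL cells (range 0.963 to 1.76), with 6 of 7 higher. Over the 10707 such regions of the genome it was 1.67. In ΔSCC4 cells the median was 0.697 (0.432 to 1.13), with 1 of 7 higher, and 0.814 over the genome. In ΔWAPL/ΔSCC4 cells it was 1.02 (0.608 to 1.45), where the genome gave 1.30. With 7 regions each range is also the 95% interval of its median across regions, and each includes 1. Without the 2 MYC exon regions the ΔWAPL/ΔSCC4 median was 1.29, and it was below 1 in the narrower domain (0.963), with fold enrichment as the level (0.901) and relative to the genome-wide median (0.788), so its direction depends on these choices. The ΔWAPL median was also below 1 relative to the genome-wide median (0.850). A level at least 1.5-fold that of wild-type was reached in ΔWAPL cells at 2 of 7 regions, against 56.8% over the genome. At 3 of 7 regions the ΔSCC4 level was at most 1/1.5 of wild-type, against 24.5%. In ΔWAPL/ΔSCC4 cells 7 of 15 regions stood at most at 1/1.5 of the ΔWAPL level, against 32.5%.

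The CTCF lists held 30 peaks in wild-type cells, 35 in ΔWAPL, 21 in ΔSCC4 and 36 in the double mutant. Relative to wild-type these were 1.17-fold (0.696 to 1.97), 0.700-fold (0.381 to 1.26) and 1.20-fold (0.719 to 2.02), and over the genome 1.06, 0.874 and 1.11. None of the ratios differed from 1 beyond counting error. Of the 43 CTCF regions, 19 were called in all 4 genotypes, or 44.2%, where the genome gave 64.2%. Another 7 were called in every genotype except ΔSCC4, or 16.3%, where the genome gave 6.89%. Of the 30 regions with a CTCF peak in wild-type or ΔSCC4 cells, 20 had one in both, against 80.2% over the genome, and none had one in ΔSCC4 cells alone, against 3.84%. A CTCF peak in ΔWAPL with none in wild-type cells was found at 9 of 39 regions, against 12.8%, and the opposite at 4 of 39, against 7.28%.

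Over the 19 shared CTCF regions the median level relative to wild-type was 0.781 in ΔWAPL, 0.703 in ΔSCC4 cells and 0.864 in the double mutant, and over the genome it was 0.814, 0.800 and 0.911. The CTCF libraries as a whole thus differed in level, and the domain's values are to be read against those genome-wide medians. The largest fall in ΔSCC4 cells was at −529.1 kb, in CASC19, where CTCF had 37 reads in wild-type cells, 38 in ΔWAPL, 10 in ΔSCC4 and 35 in the double mutant. The ΔSCC4 level there was 0.24 of wild-type (0.11 to 0.49).

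A smaller share of the domain's CTCF peaks carried SMC1 in wild-type cells than over the genome. The share was 20.0% (6 of 30; Wilson 95% interval 9.51% to 37.3%), and over the genome it was 40.7%. With the domain 200 kb narrower on each side the wild-type share was 23.8% (10.6% to 45.1%), an interval that included 40.7%. So did those with −log10 q of at least 10 (26.3%, 11.8% to 48.8%) and with equal numbers of strongest peaks (21.7%, 9.66% to 41.9%). The other settings excluded it, and the genome-wide share was not recomputed under any setting. In ΔWAPL cells the share was 57.1% (20 of 35; 40.9% to 72.0%), near the genome-wide 60.8%. In ΔSCC4 cells it was 33.3% (7 of 21; 17.2% to 54.6%; genome 32.3%) and in ΔWAPL/ΔSCC4 cells 50.0% (18 of 36; 34.5% to 65.5%; genome 52.2%). Conversely, 6 of 8 SMC1 peaks lay at CTCF in wild-type cells, 20 of 21 in ΔWAPL, 6 of 7 in ΔSCC4 and 18 of 18 in ΔWAPL/ΔSCC4 cells. The genome-wide shares were 94.5%, 81.6%, 95.2% and 93.5% in that order, and the Wilson 95% interval of the wild-type share, 40.9% to 92.9%, lay below its genome-wide value. Without peaks at an IgG peak the wild-type share was 83.3% (43.6% to 97.0%), an interval that included 94.5%.

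CTCF regions with SMC1 were the more strongly enriched ones in each genotype. The median CTCF fold enrichment in wild-type cells was 18.8 at the 6 regions with SMC1 and 8.67 at the 24 without. It was 13.5 at 20 regions against 5.91 at 15 in ΔWAPL cells, 14.8 at 6 against 9.35 at 14 in ΔSCC4 cells and 12.3 at 18 against 6.31 at 18 in ΔWAPL/ΔSCC4 cells. The ranges overlapped in every genotype. Among the wild-type CTCF regions with a motif, the 5 that carried SMC1 in wild-type cells had a median of 18.9 and a range of 16.7 to 20.9. The 13 that carried SMC1 only in ΔWAPL or ΔWAPL/ΔSCC4 cells had a median of 14 and reached from 7.74 to 22.2. The 7 that never carried it had a median of 5.68. Forward and reverse motifs were mixed in each of these classes, 3 and 2, 6 and 7, and 3 and 4 respectively.

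**Figure D5:**
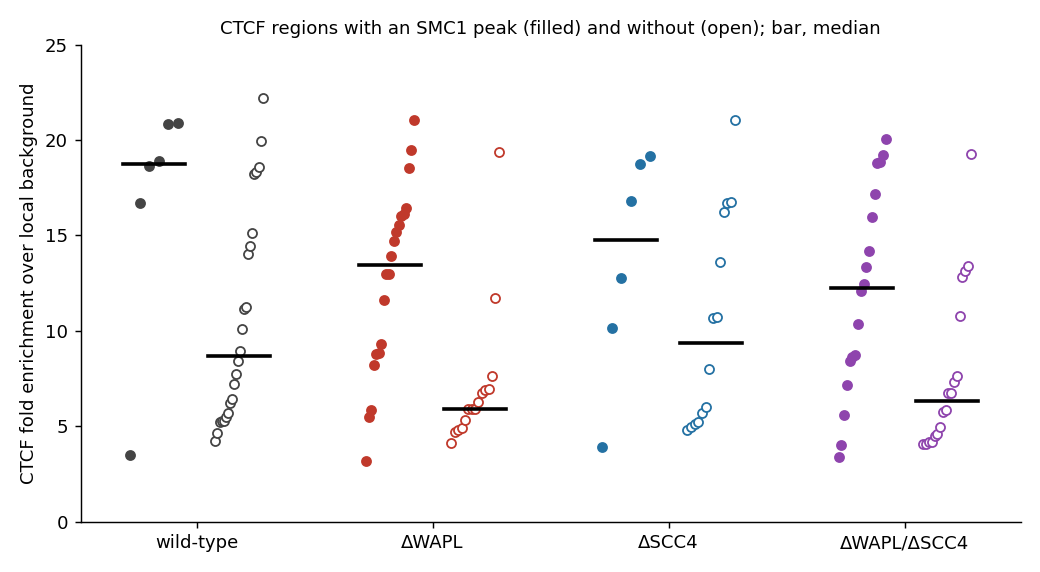
CTCF fold enrichment of each CTCF region of the domain in the 4 genotypes, for regions with an SMC1 peak of the same genotype (filled points) and without (open points), with a bar at the median. In wild-type cells the medians are 18.8 and 8.67, and the open points include the highest value of that genotype, 22.2.

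By position, the CTCF motifs of the domain were 7 forward and 6 reverse on the centromere side, 2 forward and none reverse within 5 kb of MYC, 1 of each in PVT1, and 6 forward and 11 reverse on the telomere side. The 2 within 5 kb of MYC were at −2.1 kb and at 1.6 kb. The latter was called in ΔWAPL cells alone, and its match (9.39) missed the 1% score. The sites upstream of MYC, at −10.3 and −2.1 kb, both pointed toward the telomere. The first reverse motif beyond them with a CTCF peak in wild-type cells was that in PVT1 at 325.9 kb, which carried no SMC1 and missed the 1% score (10.4 against 10.47). At that score the first was at 953.0 kb. The first with SMC1 in wild-type cells was that at 1123.1 kb. The CTCF site at −529.1 kb is counted as forward throughout, but its match (8.69) missed the 1% score. A reverse match that passed it (12.3) lay under the SMC1 summit inside the same CTCF interval, so the orientation of this site is uncertain.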

How the data were processed

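ChIP-seq of SMC1, CTCF and IgG was done in 4 genotypes of HAP1 cells, with 1 library per group, grouped from the labels. The authors mapped reads to hg19 with Bowtie2 and called peaks per library with MACS2 2.1.1 (submitters' processing notes). The deposited lists give each peak's interval, its summit position, an integer score that was not used, the fold enrichment at the summit as a ratio to local background, and −log10 p and −log10 q. The methods name IgG as the control for calling, but every background above the floor of a list was a whole number of that library's own reads in 10 kb.

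Whole-number summit reads and background were solved from the deposited fold enrichment and −log10 p, to a tolerance of 0.002. This gave every SMC1 and CTCF summit of the domain, and it was tested on simulated data. The lowest background over the shortest interval gave the library average. Overlap meant at least 1 bp. Exons and genes came from GENCODE version 44 on GRCh37. Counts have exact Poisson, ratios exact binomial and shares Wilson 95% intervals, and no test was made. Tools were Python 3.11.15, numpy 2.4.6, pandas 2.3.3, scipy 1.17.1 and pysam 0.24.0. The members, lists and the rule for named regions (all at MYC and PVT1, the 3 strongest SMC1 and CTCF regions per desert, the 3 strongest there that ΔWAPL cells had and wild-type cells lacked, and SMC1 without CTCF) were chosen with earlier results of these data known. Regions named beyond this rule were chosen after their values were seen. The alternatives were stricter peak thresholds, removal of peaks at IgG peaks, depth scaled to the shallowest library with −log10 p of at least 8, equal list length, other overlap rules, a narrower domain, other level measures and a stricter motif score.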

Additional observations from a re-analysis of the deposited data

Results flagged for a closer look

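With 1 library per group, differences between backgrounds were not tested. Of 60 pairs of effects compared (loss of SCC4 with and without WAPL, and loss of WAPL with and without SCC4), 29 had opposite directions. In 13 of those, at 8 regions, the counting interval of the ratio of the effect in the second background to that in the first did not include 1, and 2 more were medians, given without a counting interval of their ratio. At one region the ratio is the same number for both losses by construction, so regions given for either loss are 1 measurement. All but 1 of the 8 regions were CTCF regions. The share of such pairs over the genome was not counted, so these numbers do not show whether the domain is unusual.

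The median CTCF level over the 19 shared regions went down on loss of SCC4 with WAPL present (0.703) and up without it (1.12), a ratio of 1.60. For loss of WAPL the medians were 0.781 with SCC4 and 1.16 without, a ratio of 1.48. Over the genome the corresponding medians were 0.800 and 1.12 for SCC4 and 0.814 and 1.14 for WAPL, so the same turn was present outside the domain, with a ratio of 1.40 for either loss.

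The largest ratio was at the CTCF site at −529.1 kb, 4.32 (1.87 to 9.98) for either loss. At 1123.1 kb the ratio was 2.86 (1.67 to 4.91) for CTCF under either loss and 2.39 (1.01 to 5.64) for SMC1 on loss of SCC4. At 1946.0 kb it was 2.21 (1.11 to 4.43) and at −239.6 kb 1.86 (1.15 to 3.02), for either loss. At 1990.2 kb it was 1.72 (1.05 to 2.83), for either loss. At −926.1 kb it was 2.30 (1.15 to 4.61) for loss of WAPL, and at −911.7 kb 1.75 (1.12 to 2.74) for loss of SCC4. The genome-wide CTCF ratio of 1.40 lay inside the intervals at 1946.0, −239.6, 1990.2, −926.1 and −911.7 kb and below those at −529.1 and 1123.1 kb.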

How the results depend on the processing

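There were 33 results, among them the IgG peak counts, which were not recomputed. For the others, 258 values were recomputed under 14 alternatives. Of these values, 232 stayed inside the 95% interval of the reported value (within 1.5 times for counts of regions) and 26 did not. The causes of these moves were not tested.

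With −log10 q of at least 10, the ΔWAPL/ΔSCC4 ratio of SMC1 peaks was 0.857, the share of SMC1 peaks at CTCF in ΔSCC4 cells 100%, the share of CTCF peaks with SMC1 15.4% in ΔSCC4 cells and 26.1% in the double mutant, the share of wild-type SMC1 peaks found in ΔSCC4 cells 28.6%, and the SMC1 regions 2 on the centromere side, 0 in PVT1 and 7 on the telomere side. With equal numbers of strongest peaks, that ratio was 0.750, the share of CTCF peaks with SMC1 36.0% in ΔWAPL and 25.0% in ΔWAPL/ΔSCC4 cells, the share of wild-type SMC1 peaks found in ΔWAPL/ΔSCC4 cells 50.0%, and the SMC1 regions 2 and 7 on the centromere and telomere sides. With a fold enrichment of at least 5, or without peaks at an IgG peak, 100% of SMC1 peaks lay at CTCF in ΔWAPL and in ΔSCC4 cells, and in the latter setting 2 SMC1 regions were left at MYC. A domain 200 kb narrower on each side held 3 and 7 SMC1 regions on the centromere and telomere sides. With fold enrichment as the level, the CTCF medians were 0.938 in ΔWAPL and 0.805 in ΔSCC4 cells. Relative to the genome-wide median, the SMC1 median in ΔWAPL cells was 0.850 and the CTCF medians were 0.959 in ΔWAPL and 0.879 in ΔSCC4 cells.

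No paired analysis was possible because each group had 1 library. Culture, precipitation and library variation cannot be separated from genotype. A region with no listed peak is one below the calling limit, not one shown to lack signal.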
